A study of Mus musculus with 5 samples.

Results

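The genes described here are the co-receptors and adaptors through which Toll-like receptors signal: the co-receptors Cd14 and Ly96, the adaptors Myd88, Tirap, Ticam1 and Ticam2, the kinases Irak1 and Irak2, and the ubiquitin ligases Traf6 and Traf3. Their probes were taken by RefSeq accession whatever their signal, but the 10 genes were chosen with earlier results of these data known. They are 10 of the 20145 genes named in this way, with 13 of the array's 55681 probes. Any probe of theirs under another kind of identifier was not taken. The study profiled peritoneal lavage cells, collected from female BALB/c mice at 2 h after an intraperitoneal injection, on single-colour Agilent mouse arrays labelled with cyanine 3. The 5 injections were saline (PBS), 50 µg of AEPS (a root polysaccharide of the plant Actinidia eriantha), 25 µg of the antigen ovalbumin (OVA), 25 µg of OVA with 50 µg of AEPS (OVA+AEPS), and 25 µg of OVA with 200 µg of the aluminium adjuvant alum (OVA+Alum). Each injection had 1 array, and the labels give neither the age of the mice nor whether cells of several mice were pooled. No difference below therefore has a replicate check or a p-value. Most log2 differences of the 10 genes are given with a technical standard error (SE) from the scanner software's error model. It leaves out the spread between mice. For bright probes this SE was nearly the same throughout, 0.14 per array, and it was not reduced for probes printed at several spots.

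Toll-like receptors recognise microbial molecules and pass the signal on through adaptor proteins that carry a TIR domain. CD14 hands lipopolysaccharide to MD-2, the product of Ly96, which sits on TLR4. MyD88, brought to some receptors by TIRAP, assembles IRAK kinases and TRAF6 and leads to NF-κB, whereas TRIF, the product of Ticam1, which TRAM (Ticam2) links to TLR4, engages TRAF3 and leads to IRF3 and type I interferon. Resident peritoneal macrophages carry Toll-like receptors and meet an injected adjuvant early, and neutrophils enter the cavity within hours of it.

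All values below are log2 signals after subtraction of each array's 75th percentile, called levels here, and a gene is represented by its brightest probe. No level is set against that of another gene. A gene was called higher or lower when it differed at least 2-fold (1 on the log2 scale) and its probe was well above background on at least 1 of the 2 arrays compared. The share of probes well above background was 56.7% to 60.0% per array. Markers of the cell types of a lavage were above background. All 8 markers of large peritoneal macrophages, all 6 of B cells and all 7 of mast cells were so on every array. So were the 10 of 11 listed neutrophil markers that had a usable named probe, while the eosinophil marker Epx was so on none. The summed signal of the neutrophil markers on the 4 injected arrays was 1.58 to 1.90 times that with PBS, and that of the large peritoneal macrophage markers was 0.47 times it with OVA+Alum and 0.75 to 0.86 times it on the other 3. The sum was 0.59 to 0.78 times PBS for B cell markers and 1.12 to 3.01 times it for mesothelial markers, highest with OVA+Alum, where all 5 were called higher. Such sums weigh the brightest markers most. The bright neutrophil marker S100a9 was 0.23 to 0.38 above PBS on the log2 scale. The median of the neutrophil markers was 2.09 above PBS with AEPS, 1.82 with OVA and 2.31 with OVA+Alum. With AEPS, 1 of 6 B cell markers and 2 of 8 macrophage markers lay above PBS. Scaling to the spike-in controls instead moved the median difference over genes from -0.16 to 0.50 for AEPS against PBS, so differences below are relative to the array's own distribution.

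Of the 10 genes, 9 were well above background on every array, and as a group they varied about as much as other genes. Their range over the 5 arrays was under 1 on the log2 scale for 8 genes, and only Ly96 spanned more, with 1.83. Over the 13678 genes above background on all 5 arrays the median range was 0.67, and 25.9% spanned at least 1. AEPS against PBS called 1 of the 10 genes higher (Ly96) and 1 lower (Ticam2), beside 8.70% of all tested genes higher and 6.89% lower. OVA against PBS called Ly96 higher and none lower, beside 6.67% and 4.08%. OVA+Alum against PBS called none in either direction, beside 6.46% and 5.15%. These counts are too small to set the genes apart from the background shares. In bulk RNA such as this, fewer cells of a type and less RNA per cell cannot be told apart. Cd14, Myd88, Tirap and Traf6 were above PBS on all 4 injected arrays, as were 19.8% of the 13678 genes. After median scaling Ly96 joined them, with 25.9% of genes, and after spike-in scaling Ly96, Ticam1 and Traf3 did, with 51.0% of genes. Irak1 was below PBS on all 4, as were 38.0% of these genes, but it was so under neither median scaling, spike-in scaling nor normexp background correction.

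**Figure D1:**
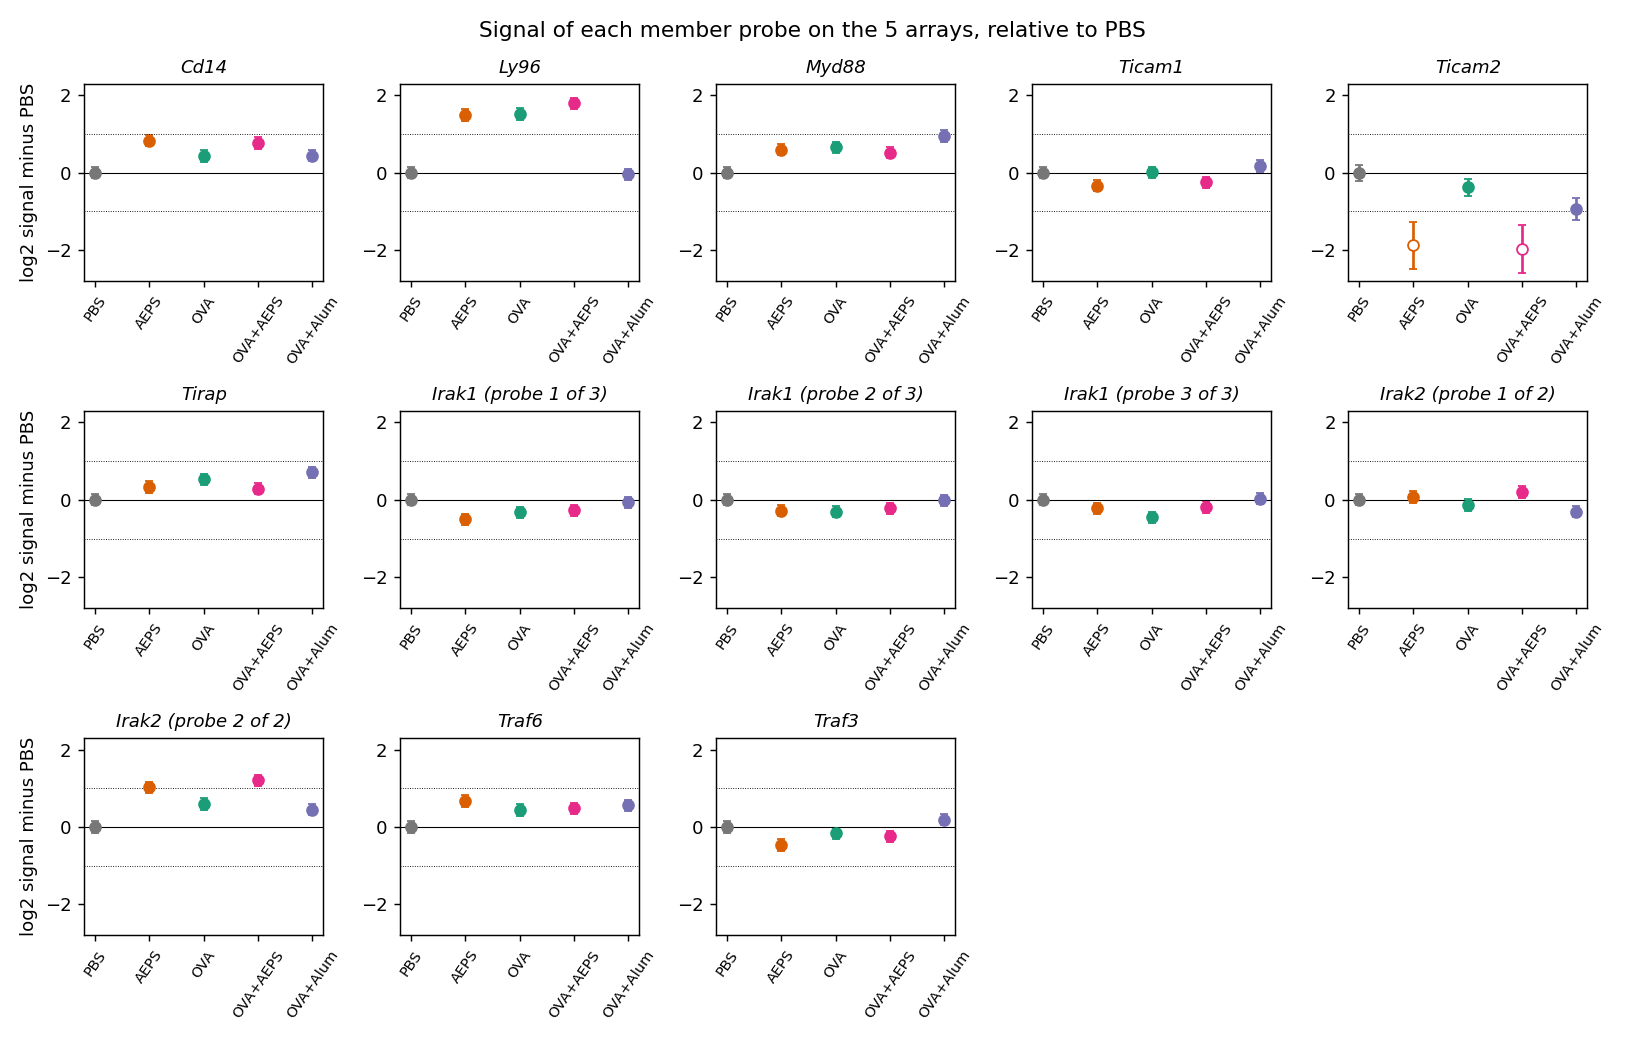
Each panel shows 1 probe of the 10 genes, with the injection on the x axis and the log2 level minus that with PBS on the y axis. Points are single arrays, bars are the technical SE of that array, open points were not well above background, and dotted lines mark 2-fold. Ly96 passed 2-fold with AEPS, OVA and OVA+AEPS and was at the PBS level with OVA+Alum, and the second Irak2 probe passed it with AEPS and OVA+AEPS.

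Ly96, which encodes the lipopolysaccharide-binding partner of TLR4, had levels of -0.66 with PBS, 0.83 with AEPS, 0.86 with OVA, 1.14 with OVA+AEPS and -0.70 with OVA+Alum. The 3 arrays of AEPS, OVA and their mixture were high, and PBS and OVA+Alum were low and nearly equal. The differences from PBS were 1.49 (SE 0.20) for AEPS and 1.51 (SE 0.20) for OVA, which are 2.81-fold and 2.86-fold. OVA+Alum differed from PBS by -0.04 (SE 0.20). Within the high arrays OVA+AEPS was 0.28 (SE 0.20) above OVA and 0.30 (SE 0.20) above AEPS, and AEPS differed from OVA by -0.02 (SE 0.20), so their order is not resolved beyond the technical error.

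The levels of Ly96 also followed the position of the arrays on their slide. PBS and OVA+Alum lay in column 4 of the slide, and the other 3 arrays lay in columns 1 to 3. Ly96 was one of 163 genes, 1.05% of those above background on at least 1 array, that were at least 2-fold lower on both column 4 arrays than on each other array, and 15 genes were at least 2-fold higher there. For Ly96 the gap between the 2 sets of arrays was 1.49, while between arrays outside column 4, and between the arrays in it, no difference was above 0.30 in size. No other gene of the 10 showed such a gap. Slide column and injection cannot be told apart for Ly96. PBS was also the only array in row 1 of the slide, so slide row and injection cannot be told apart in any difference from PBS, those of Cd14, Myd88, Tirap and Traf6 included. Of the 7 mast cell markers, Cpa3, Fcer1a and Mrgprb2 were among the 163 genes, whereas the other 4 differed from PBS by at most 0.36 on any array, and the list's summed signal was 0.99 to 1.28 times that with PBS. Of the other marker lists only that of monocytes held a gene of the 163, Vcan. The part of these cells in the Ly96 levels was not tested. The 3 genes with the most similar profiles over the 5 arrays, among 13677 others, were Rif1, Zfp800 and Gm5039, at root mean square distances of 0.050, 0.055 and 0.083 on the log2 scale, and all 3 were among the same 163 genes.

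**Figure D2:**
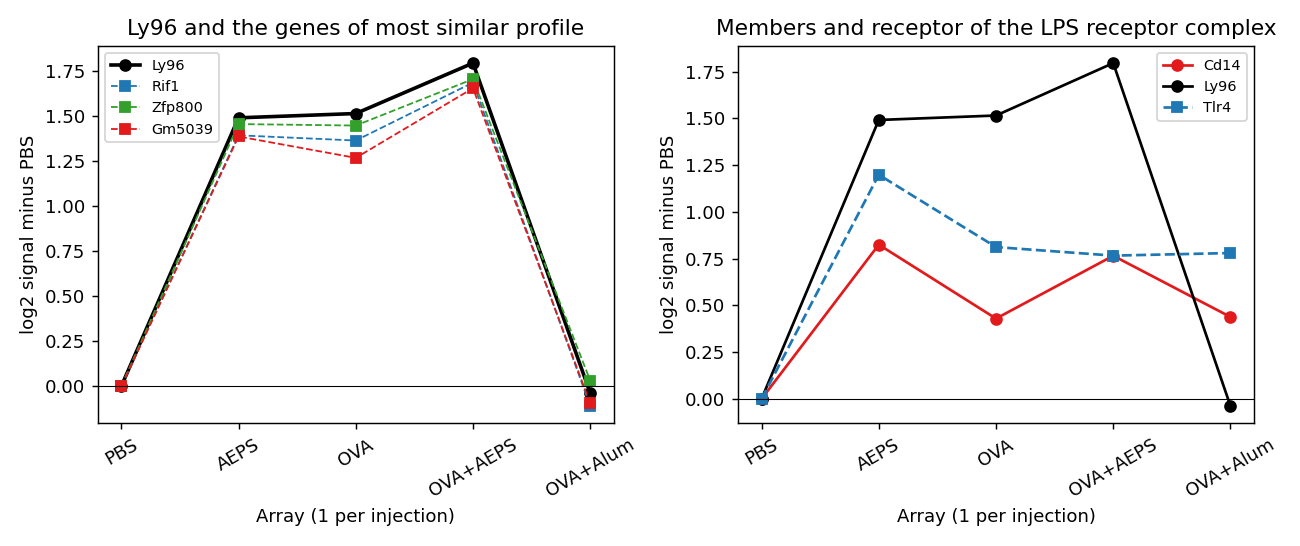
Both panels show log2 levels minus the PBS level on the 5 arrays, 1 point per array. On the left Ly96 is drawn with Rif1, Zfp800 and Gm5039, all of which were high with AEPS, OVA and OVA+AEPS, and on the right with Cd14 and Tlr4, which were above the PBS level with OVA+Alum.

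Cd14, the co-receptor that delivers lipopolysaccharide to the TLR4 complex, had levels of 8.74 with PBS, 9.56 with AEPS, 9.17 with OVA, 9.50 with OVA+AEPS and 9.18 with OVA+Alum. Both injections that held AEPS were highest, PBS was lowest, and OVA and OVA+Alum lay between them. The difference from PBS was 0.82 (SE 0.20), or 1.77-fold, for AEPS, 0.43 (SE 0.20) for OVA and 0.44 (SE 0.20) for OVA+Alum. OVA+AEPS was 0.34 (SE 0.20) above OVA and differed from AEPS by -0.06 (SE 0.20). No Cd14 difference reached 2-fold, although AEPS against PBS was 1.48 on the log2 scale after spike-in scaling. No spot was saturated on any array, so the signal of Cd14, 143405 with PBS and 312836 with AEPS, was within the scanner's range. Tlr4, the receptor that both co-receptors serve, was above PBS by 1.20 with AEPS, 0.81 with OVA, 0.77 with OVA+AEPS and 0.78 with OVA+Alum.

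Myd88 encodes the adaptor of all Toll-like receptors but TLR3, and of the interleukin-1 receptor family. Its probe is printed at 10 spots on each array, so the spread between spots can be given. Its levels were 5.59 with PBS, 6.18 with AEPS, 6.25 with OVA, 6.11 with OVA+AEPS and 6.54 with OVA+Alum, with a standard deviation between spots of 0.027 to 0.059. All 4 injected arrays were above PBS, OVA+Alum was highest, and the other 3 lay close together. The differences from PBS were 0.59 (SE 0.20) for AEPS, 0.66 (SE 0.20) for OVA and 0.95 (SE 0.20) for OVA+Alum, the last of which was 1.93-fold and just under the call. AEPS against PBS was 1.25 after spike-in scaling. OVA+Alum against PBS crossed 2-fold with 1.08 after median scaling, 1.01 after quantile normalization, 1.23 after spike-in scaling and 1.02 in the authors' deposited table. Adding AEPS to OVA changed the level by -0.14, less than its SE of 0.20, which was not taken from the spread between spots.

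Tirap, the sorting adaptor that brings MyD88 to TLR2 and TLR4, had levels of 2.17 with PBS, 2.50 with AEPS, 2.70 with OVA, 2.45 with OVA+AEPS and 2.88 with OVA+Alum. As for Myd88, PBS was lowest and OVA+Alum highest. OVA+Alum was 0.72 (SE 0.20) above PBS, OVA was 0.53 (SE 0.20) above it and AEPS 0.33 (SE 0.20). OVA+AEPS lay 0.43 (SE 0.20) below OVA+Alum, and the same difference was -0.43 (SE 0.20) for Myd88, Ticam1 and Traf3. None of these reached 2-fold.

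Traf6, the ubiquitin ligase downstream of the IRAK kinases, had levels of -0.34 with PBS, 0.34 with AEPS, 0.11 with OVA, 0.15 with OVA+AEPS and 0.22 with OVA+Alum. PBS was lowest, and the 4 injected arrays lay within 0.23 of each other. The differences from PBS were 0.67 (SE 0.20) for AEPS, 0.44 (SE 0.20) for OVA and 0.56 (SE 0.20) for OVA+Alum, and that for AEPS passed 2-fold, at 1.33, after spike-in scaling. Traf3, which acts on the TRIF arm, ran otherwise, with levels of 4.19 with PBS, 3.73 with AEPS, 4.03 with OVA, 3.95 with OVA+AEPS and 4.38 with OVA+Alum. It was lowest with AEPS, 0.46 (SE 0.20) below PBS, and highest with OVA+Alum, and the sign against PBS turned to 0.19 for AEPS after spike-in scaling.

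Myd88, Tirap and Traf6 shared, with Cd14, their position above PBS on every injected array under each of the 6 scalings and background settings compared, so their promoter windows are shown. After spike-in scaling Ticam1, Traf3 and Ly96 had that position too. RefSeq windows of GRCm38.p6, from 250 bases before to 50 after the annotated start, were found for 7 of the 10 genes, with a pair of overlapping windows each for Tirap and Irak1. Capitals mark matches, on either strand, to the κB motif in Tirap and Traf6 and to the interferon-stimulated response element (ISRE) in Myd88. Each window is written 5′ to 3′ on the strand of its gene: Myd88 is chr9:119339969-119340268 on the minus strand, Tirap is chr9:35199916-35200215 on the minus strand, and Traf6 is chr2:101678170-101678469 on the plus strand.
Myd88: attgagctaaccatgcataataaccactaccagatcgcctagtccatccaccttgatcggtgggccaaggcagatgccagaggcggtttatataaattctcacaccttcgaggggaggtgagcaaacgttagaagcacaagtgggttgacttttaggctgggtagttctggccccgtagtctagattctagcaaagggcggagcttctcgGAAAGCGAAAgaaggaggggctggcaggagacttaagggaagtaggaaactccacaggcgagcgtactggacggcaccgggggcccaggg
Tirap: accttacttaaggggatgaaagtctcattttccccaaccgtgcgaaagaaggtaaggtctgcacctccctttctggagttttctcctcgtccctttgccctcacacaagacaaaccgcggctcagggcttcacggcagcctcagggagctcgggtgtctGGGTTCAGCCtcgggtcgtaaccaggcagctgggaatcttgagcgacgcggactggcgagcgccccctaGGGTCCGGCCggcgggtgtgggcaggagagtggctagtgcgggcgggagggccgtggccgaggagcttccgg
Traf6: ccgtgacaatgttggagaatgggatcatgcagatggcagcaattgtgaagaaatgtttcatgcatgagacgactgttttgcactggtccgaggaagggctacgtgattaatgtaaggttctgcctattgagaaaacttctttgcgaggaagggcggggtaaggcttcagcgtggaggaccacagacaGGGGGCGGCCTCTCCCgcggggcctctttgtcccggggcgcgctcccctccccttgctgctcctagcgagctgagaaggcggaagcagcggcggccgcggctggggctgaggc
The Myd88 window held 1 ISRE match, which began 40 bases before the start, and no κB match. An ISRE match was present in 3.44% of all 32851 windows, and in none of the other 6 genes. The Traf6 window held 2 overlapping κB matches, which began 63 and 57 bases before the start, and the Tirap window shown held 2, which began 91 and 22 bases before it. A κB match was present in 6 of the 7 genes, but also in 50.8% of all windows. The AP-1 motif TGANTCA, in 7.81% of all windows, and the cyclic AMP response element TGACGTCA, in 1.79%, matched none of the 7. These are letter matches in 300-base windows, and no binding was measured.

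**Figure D3:**
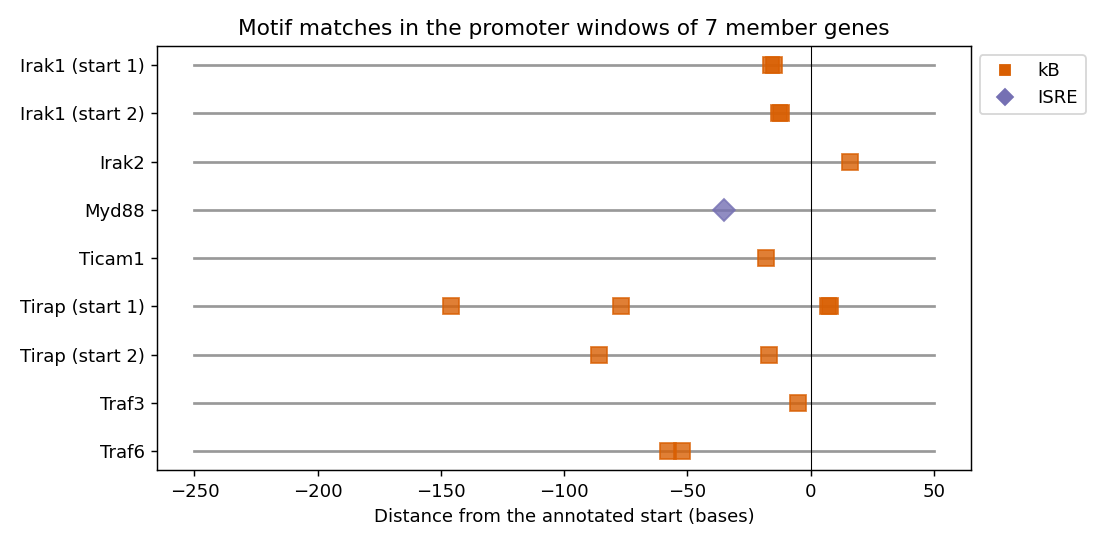
Each grey line is the 300-base promoter window of 1 annotated start, with the distance from that start in bases on the x axis. Squares mark κB matches and diamonds ISRE matches, each at the centre of its match, and the only ISRE match is that of Myd88.

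Ticam1, which encodes the TRIF adaptor of TLR3 and TLR4, had levels of 2.89 with PBS, 2.56 with AEPS, 2.90 with OVA, 2.64 with OVA+AEPS and 3.07 with OVA+Alum. The injections that held AEPS were lowest and the rest lay close together. AEPS was 0.34 (SE 0.20) below PBS and OVA+AEPS was 0.26 (SE 0.20) below OVA, neither of which reached 2-fold, and after spike-in scaling AEPS lay 0.32 above PBS.

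Ticam2, which encodes the TRAM adaptor that links TRIF to TLR4, was dim. Its levels were -3.98 with PBS, -5.85 with AEPS, -4.36 with OVA, -5.96 with OVA+AEPS and -4.92 with OVA+Alum, from signals of 21.3, 7.2, 21.3, 6.4 and 13.9. It was well above background on 3 arrays and not on those of AEPS and OVA+AEPS. Its log2 differences were -1.87 (SE 0.64) for AEPS against PBS and -1.49 (SE 0.65) for AEPS against OVA. They were -1.60 (SE 0.66) for OVA+AEPS against OVA and -1.04 (SE 0.68) for OVA+AEPS against OVA+Alum. With the lowest signal that counted as well above background in place of its own on the AEPS and OVA+AEPS arrays, the folds were 2.29, 1.76, 1.55 and 1.05 in that order. These bounds are approximate, because they take the other array's level without its error. The SE of that level was 0.20 with PBS, 0.22 with OVA and 0.28 with OVA+Alum. In addition, a probe not well above background can exceed the lowest signal that was, as Tlr5 did on the AEPS array (-5.175 against -5.177). Only the bound for AEPS against PBS passed 2-fold, and that call ended after normexp background correction.

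Irak1 and Irak2 encode kinases that MyD88 recruits. The brightest of 3 Irak1 probes had levels of 3.03 with PBS, 2.53 with AEPS, 2.71 with OVA, 2.76 with OVA+AEPS and 2.97 with OVA+Alum. PBS and OVA+Alum were highest and AEPS lowest, 0.50 (SE 0.20) below PBS. The other 2 probes differed by -0.28 and -0.21 in the same comparison, and after spike-in scaling the brightest probe lay 0.16 above PBS.

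The 2 probes of Irak2 went apart in the comparisons with PBS. The brightest had levels of 5.82 with PBS, 5.90 with AEPS, 5.69 with OVA, 6.03 with OVA+AEPS and 5.52 with OVA+Alum, a range of 0.51. The dimmer had -0.18 with PBS, 0.85 with AEPS, 0.42 with OVA, 1.02 with OVA+AEPS and 0.27 with OVA+Alum, a range of 1.20. The brightest probe was near its PBS level with AEPS, whereas the dimmer was above PBS on all 4 injected arrays. For AEPS against PBS the probes differed by 0.95, more than the spread between probes of 93.6% of the 3344 genes that had several probes above background, for which the median spread was 0.22. They differed by 0.73 for OVA and 0.75 for OVA+Alum against PBS, but by only 0.02 to 0.27 in the comparisons without PBS. The larger values thus all involve the single PBS array. Both probes carry the same transcript accession.

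The question of the mixed injections is what AEPS or alum added to the antigen. OVA+AEPS against OVA called none of the 10 genes higher and counted 1 as lower (Ticam2), beside 4.08% of all genes higher and 3.64% lower, and the other 9 differences lay between -0.26 and 0.34. OVA+Alum against OVA called none higher and Ly96 lower, beside 4.15% and 5.44%. Ly96 was 1.55 (SE 0.20) lower there, or 2.93-fold, which is again the contrast between slide columns. OVA+AEPS against OVA+Alum called Ly96 higher, by 1.83 (SE 0.20) or 3.56-fold, and counted Ticam2 as lower, beside 6.76% and 6.44%. OVA+AEPS against AEPS called none of the 9 genes tested, beside 2.06% higher and 1.88% lower, and AEPS against OVA counted only Ticam2, as lower, beside 4.25% and 3.24%. In these 3 counts Ticam2 was not well above background on the AEPS or OVA+AEPS array, and its approximate bounds of 1.55-fold, 1.05-fold and 1.76-fold do not reach 2-fold. The difference that AEPS made, with its sign, was lower with OVA than without it for 5 genes. It was lower by 1.21 (SE 0.29) for Ly96, 0.73 (SE 0.29) for Myd88 and 0.63 (SE 0.29) for Traf6. For Tirap and Cd14 it was lower by 0.58 (SE 0.29) and 0.49 (SE 0.29). For Myd88 it turned from 0.59 to -0.14, and for Tirap from 0.33 to -0.25. For 4 genes the signed difference was higher with OVA, by 0.55 (SE 0.29) for Irak1 and 0.38 (SE 0.29) for Traf3. For Irak2 and Ticam1 it was higher by 0.26 (SE 0.29) and 0.08 (SE 0.29). In size it shrank for Irak1 (-0.50 to 0.05), Traf3 (-0.46 to -0.08) and Ticam1 (-0.34 to -0.26), and grew for Irak2 (0.08 to 0.34). For Ticam2 the AEPS arrays gave no level above background. OVA alone lay above PBS in each of the first 5 genes, but that difference is itself a term of this value and no separate result. Both contrasts were made from single arrays, and the one without OVA rests on the PBS array, the only one in row 1 of the slide. For Ly96 the contrast without OVA also sets slide column 1 against column 4, while the one with OVA stays outside column 4. The share of all genes with a lower value is not given, so these counts of genes have no background beside them.

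The rest of the pathway was read from lists of its receptors, enzymes, brakes and targets, also chosen with earlier results of these data known. For AEPS against PBS the median difference of the 10 genes was 0.37 above that of all genes tested, and their 2 calls stood beside 3 higher and 1 lower of 11 Toll-like receptors and 4 higher and 1 lower of 17 downstream kinases and ubiquitin enzymes. The receptors called higher were Tlr7 (2.01, SE 0.20), Tlr3 (1.44, SE 0.32) and Tlr4 (1.20, SE 0.20), and Tlr11 was lower (-1.76, SE 0.33). Tlr3 and Tlr11 were dim, at -4.65 with PBS and -4.60 with AEPS. The lowest levels that counted as well above background were -5.13 and -5.18 on those arrays. Among the enzymes Peli1, a ubiquitin ligase that acts on IRAK proteins, was 1.76 higher, and Tank and Tbk1, which lie between TRAF3 and IRF3, were 1.34 and 1.29 higher, while Tbkbp1, which encodes a TBK1-binding adaptor, was lower (-1.43). Of 11 brakes 4 were higher, led by Tnfaip3, the A20 deubiquitinase, at 2.41 and Tax1bp1, its partner, at 2.18. Only Traf1 was called among 5 other TRAF genes, at 1.33, and only Irf7 among 5 transcription factors, at 1.97. Part of this was also seen with other injections against PBS. The median of the 10 genes was 0.36 above that of all genes with OVA and 0.24 with OVA+Alum. With OVA 2 of 12 receptors, 2 of 17 enzymes and 2 of 11 brakes were called higher, and with OVA+Alum 2, 1 and 1. Tnfaip3 and Peli1 were among these with both, and Tlr7 and Tax1bp1 with OVA only. The other TRAF genes and transcription factors had no call there.

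The lists of targets at the end of the 2 arms had higher medians with AEPS. Of the 8 listed NF-κB targets 7 had a usable named probe. With AEPS 6 of these 7 were called higher than with PBS, with Nfkbiz at 1.81 and the chemokine Cxcl2 at 1.70. The median of the 7 was 1.84 above that of all genes. All 7 IRF3 and interferon targets were called higher, with Ifit2 at 6.36 and Cxcl10 at 5.82, and their median was 4.55 above that of all genes. With OVA against PBS 1 of 7 NF-κB targets and 6 of 7 interferon targets were called higher, with Cxcl10 at 3.10. With OVA+Alum against PBS 1 NF-κB target was higher and 1, Il6, was lower by 2.07, and 4 of 6 tested interferon targets were higher. OVA+AEPS against OVA called 3 of 7 and 5 of 7 higher, with Ifit2 at 4.08. The adaptors of the 2 arms, Myd88 and Ticam1, were under 2-fold in each of these comparisons. Neutrophil markers were called higher than PBS for 7 of 10 genes with AEPS, 8 with OVA and 8 with OVA+Alum, and their part in these differences was not tested.

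**Figure D4:**
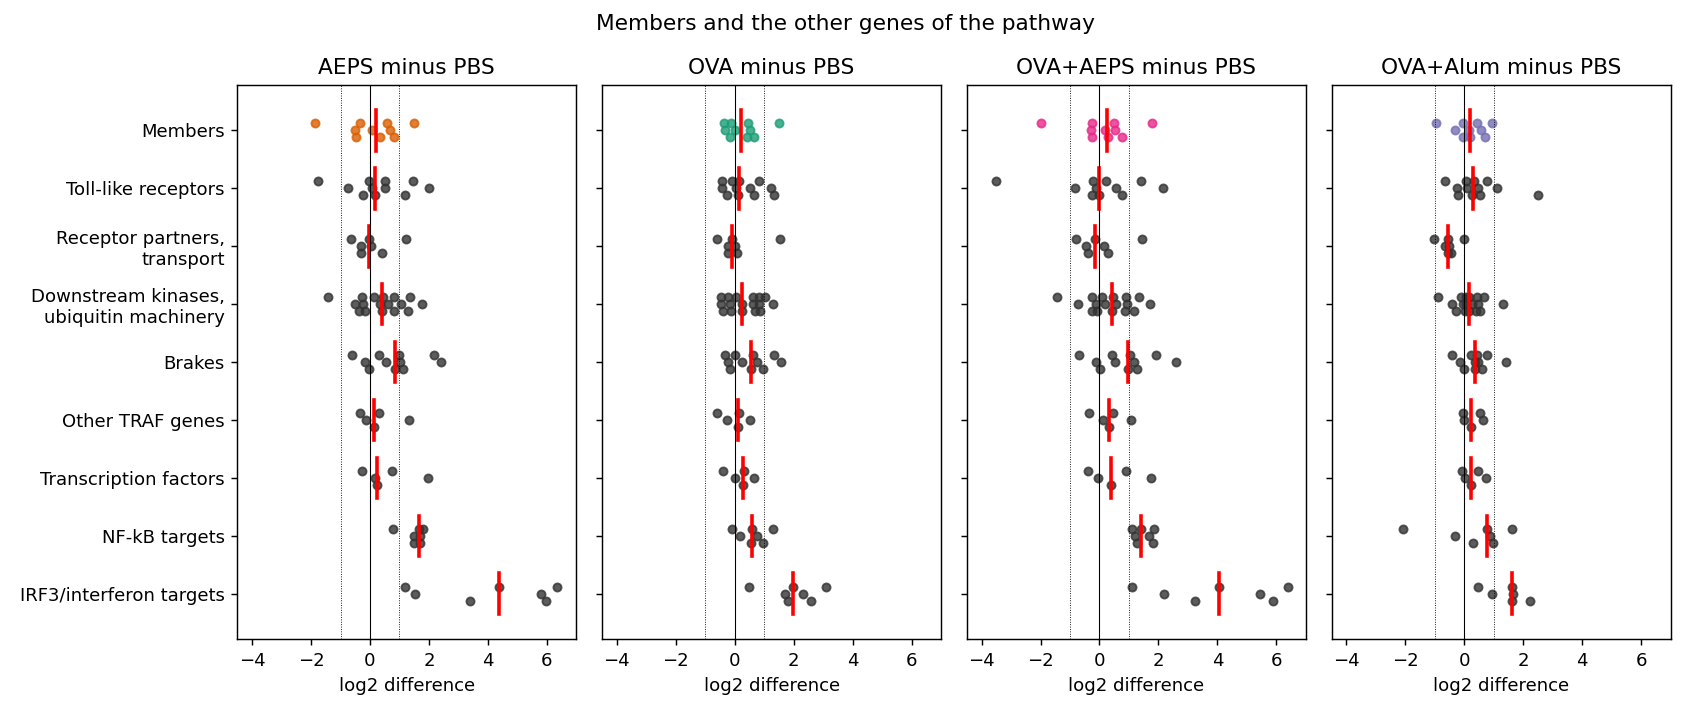
Each panel shows 1 injection against PBS, with the log2 difference on the x axis and a gene list on each line. Points are genes above background on at least 1 of the 2 arrays, the red bar is the list's median and dotted lines mark 2-fold. With AEPS the medians of the NF-κB and interferon targets lay past 2-fold and that of the 10 genes did not.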

How the data were processed

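Peritoneal cells were profiled on 5 arrays, 1 per injection. The deposited scanner files hold the authors' intensity values, made with Agilent Feature Extraction 10.7.1.1 per the file headers. The authors' deposited table holds log2 values, which correlated with the log2 signal at 0.9998 or more per array. All its columns had a median of 4.67, and its exact normalization is not given in the sources used here. From the processed signal, control and outlier spots were removed, each array's 75th percentile was subtracted on the log2 scale, and spots of a probe were averaged. Probes were named through RefSeq accessions of GRCm38.p6, which gave 26582 probes 1 symbol, while 29099 had none, and the brightest probe stood for its gene. Calls needed a 2-fold difference and a probe well above background on 1 of the 2 arrays. The number of arrays limits the precision. The 8 alternatives were median, quantile and spike-in scaling, normexp background correction (limma 3.58.1, offset 50), the authors' table, the median over probes, no filter, and background on both arrays. The calling step was run on simulated data with planted differences above the cut-off and noise from the scanner's error model. Such data hold no spread between mice or slide positions, so this checked the code alone. The 10 genes, the lists and the motifs were chosen with earlier results of these data known. From each list up to 4 genes with the largest difference were eligible to be named, and Tlr4 was given on every array. The similar profiles are the 3 nearest genes.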

Additional observations from a re-analysis of the deposited data

Results flagged for a closer look

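The dimmer Irak2 probe was not the one that stood for the gene, and it passed 2-fold where the brighter did not. It was 1.03 (SE 0.20) above PBS with AEPS on the log2 scale, against 0.08 for the brighter probe. In the comparisons without PBS the 2 probes differed by at most 0.27. The probes read the same RefSeq transcript, and which of them follows Irak2 was not tested.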

How the results depend on the processing

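No paired analysis was possible because each injection had 1 array. Of 64 counts of called genes under the 8 alternatives, 50 stayed within 1.5 times the count reported. For AEPS against PBS the count of 2 became 5 with spike-in scaling (Cd14, Ly96, Myd88 and Traf6 higher, Ticam2 lower) and 1 with normexp or with background required on both arrays. For OVA+AEPS against OVA and for AEPS against OVA the count of 1 became 0 with normexp and with background required on both arrays, without Ticam2. For OVA+AEPS against OVA+Alum the count of 2 became 1 with spike-in scaling, with normexp and with background on both arrays. For OVA+Alum against PBS the count of 0 became 1, Myd88, with median, quantile and spike-in scaling and with the authors' table. Ly96 kept its 4 calls under all 8 alternatives, from 1.33 to 2.15 for AEPS against PBS and from 1.38 to 1.81 for OVA against PBS. Of 628 differences of the 10 genes under alternatives, 596 kept their sign, and none of the 32 that turned was above 0.50 in size as reported. Of all genes called, the share called higher was 55.8% for AEPS against PBS and 91.6% with spike-in scaling. These shares were 62.0% and 82.9% for OVA against PBS (73.5% with median scaling), 55.7% and 78.2% for OVA+Alum against PBS (67.7% with median scaling) and 56.7% and 79.7% for AEPS against OVA. They were 52.9% and 66.8% for OVA+AEPS against OVA, 51.2% and 66.4% for OVA+AEPS against OVA+Alum and 52.3% and 40.3% for OVA+AEPS against AEPS. The cause was not tested. Signal over background limits Ticam2 alone among the 10 genes.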
